A study of Homo sapiens with 14 samples.

Results

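Splice events of the mutually exclusive exon type were examined in HEK293T, a human embryonic kidney cell line, with and without a mutation of SF3B1. In such an event, 2 exons lie side by side between the same pair of flanking exons, and a transcript carries the exon nearer the 5′ end of the gene (the 5′ exon here) or the one nearer the 3′ end (the 3′ exon). The members were all events of this type whose mean junction reads, averaged over both genotypes, were at least 10. There were 15469 of them among 17046 events of the type and 114349 events of all types, and they made up 16.4% of the 94061 events with that many reads. They lay in 5210 genes and used 13325 distinct exon pairs. Because 1831 pairs occurred with more than 1 set of flanking exons, 3975 members shared their pair with another member and are not independent of it. The rule used reads, exon lengths and gene, and no difference between genotypes.

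The 3 WT libraries carry SF3B1 K700K and the 3 MT libraries SF3B1 K700E, which the study introduced at the endogenous locus, in otherwise isogenic cells that received no treatment according to the labels. How many clones the libraries came from is not given in the sources used here, so p-values measure the spread between these libraries, which may be technical. No replicate number comes with the MT levels, so MT 1, MT 2 and MT 3 name them by column order.

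SF3B1 is the core subunit of the U2 snRNP that holds the branch site during recognition of a 3′ splice site, and its hotspot mutants are known for the use of cryptic 3′ sites a short way upstream of the usual ones. Mutually exclusive exons are a form of alternative splicing in which a cell chooses between exons that often arose by duplication, so that the protein keeps its length and exchanges a stretch of sequence. The pyruvate kinase gene PKM is the textbook case, where the 5′ exon gives the M1 enzyme and the 3′ exon the M2 enzyme of proliferating cells. Splicing software can also apply the name to any neighbouring pair of exons, as long as some junction reads skip each of them.

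The exon pairs of 4 genes show what the first kind of pair looks like. They were read from the GRCh38 genome, whose sequence has the dinucleotide AG before 99.9% of the 5′ exons of the members, and capitals mark the bases at which the exons of a pair differ when they are laid side by side without gaps. Of the 167 bases of PKM, 62.9% are identical between the exons, against 75.6% of 86 in ACTN4, an actin crosslinker, 65.5% of 194 in CALU, a calcium-binding protein of the endoplasmic reticulum, and 70.8% of 106 in RAB6A, a GTPase of Golgi transport.
PKM 5′ exon, chr15:72203022-72203188, minus strand: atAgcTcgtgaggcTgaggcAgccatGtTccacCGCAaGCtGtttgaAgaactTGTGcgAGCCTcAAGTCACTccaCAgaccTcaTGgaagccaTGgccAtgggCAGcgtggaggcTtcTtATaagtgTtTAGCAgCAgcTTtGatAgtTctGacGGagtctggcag
PKM 3′ exon, chr15:72202454-72202620, minus strand: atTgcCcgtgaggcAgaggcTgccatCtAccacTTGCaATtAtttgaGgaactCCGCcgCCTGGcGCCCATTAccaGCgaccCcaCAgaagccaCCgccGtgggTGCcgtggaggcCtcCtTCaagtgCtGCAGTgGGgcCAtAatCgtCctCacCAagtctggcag
ACTN4 5′ exon, chr19:38710257-38710342, plus strand: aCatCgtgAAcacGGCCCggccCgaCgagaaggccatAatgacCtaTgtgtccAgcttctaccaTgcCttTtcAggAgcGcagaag
ACTN4 3′ exon, chr19:38711276-38711361, plus strand: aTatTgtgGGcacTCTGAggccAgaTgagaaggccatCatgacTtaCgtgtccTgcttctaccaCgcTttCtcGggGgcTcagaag
CALU 5′ exon, chr7:128754262-128754455, plus strand: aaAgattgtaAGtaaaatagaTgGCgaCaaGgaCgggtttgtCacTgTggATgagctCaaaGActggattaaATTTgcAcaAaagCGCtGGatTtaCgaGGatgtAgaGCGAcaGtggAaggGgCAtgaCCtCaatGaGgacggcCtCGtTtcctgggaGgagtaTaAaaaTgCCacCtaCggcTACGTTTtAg
CALU 3′ exon, chr7:128754529-128754722, plus strand: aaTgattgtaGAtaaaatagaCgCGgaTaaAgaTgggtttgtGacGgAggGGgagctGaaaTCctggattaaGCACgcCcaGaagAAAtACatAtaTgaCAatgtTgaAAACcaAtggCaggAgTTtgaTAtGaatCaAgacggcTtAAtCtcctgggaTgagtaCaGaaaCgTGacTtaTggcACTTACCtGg
RAB6A 5′ exon, chr11:73718785-73718890, minus strand: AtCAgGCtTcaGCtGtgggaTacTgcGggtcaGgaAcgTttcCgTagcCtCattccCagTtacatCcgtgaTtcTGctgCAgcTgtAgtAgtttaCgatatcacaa
RAB6A 3′ exon, chr11:73718613-73718718, minus strand: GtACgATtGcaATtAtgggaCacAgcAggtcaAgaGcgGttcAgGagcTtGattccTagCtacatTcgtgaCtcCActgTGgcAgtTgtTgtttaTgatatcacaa

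The 3′ splice sites of the called pairs are given with 24 bases of intron and 3 bases of exon, and capitals mark the AG at the end of the intron.
MID1 5′ exon, 716 nt, chrX:10567601-10567627, minus strand: caaatcttacattcttgtttccAGata
MID1 3′ exon, 96 nt, chrX:10523185-10523211, minus strand: tcttttttttttttttttgaacAGcaa
UQCC1 5′ exon, 109 nt, chr20:35347270-35347296, minus strand: tttttttgtcttcttcccacccAGgat
UQCC1 3′ exon, 78 nt, chr20:35314763-35314789, minus strand: tgtttttgccatttgtttctgtAGgtt

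The value of an event was the inclusion level, the fraction of length-scaled junction reads that support the 5′ exon rather than the 3′ exon. A level of 1 means the 5′ exon alone and a level of 0 the 3′ exon alone. A transcript that carries both exons in a row gives reads to each form and draws the level toward 0.5. Members had a median of 103 mean reads (interquartile range 51.1 to 207.8), and the median over all events with the read minimum was 82.2. At the threshold, 117 events of the type had 9 to under 10 reads and were left out, and 126 members had 10 to under 11. The median length was 115 nt for the 5′ exon and 116 nt for the 3′ exon, and the median distance between them was 3217 nt. Both lengths were multiples of 3 in 2884 members (18.6%), so that either exon would keep the reading frame.

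Most members were not exclusive by annotation. GENCODE lists at least 1 transcript with both exons for 14936 members (96.6%), no such transcript for 514 (3.32%), and lacks an exon of the remaining 19. The levels of these classes differed. A level between 0.4 and 0.6 was found in 36.7% of members with such a transcript and in 13.2% of those without. A level under 0.1 or over 0.9 was found in 27.2% and 55.8%, respectively. The distribution of levels thus had a broad peak near the middle for pairs listed together in a transcript, and stood at the ends for pairs without such a transcript.

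**Figure D1:**
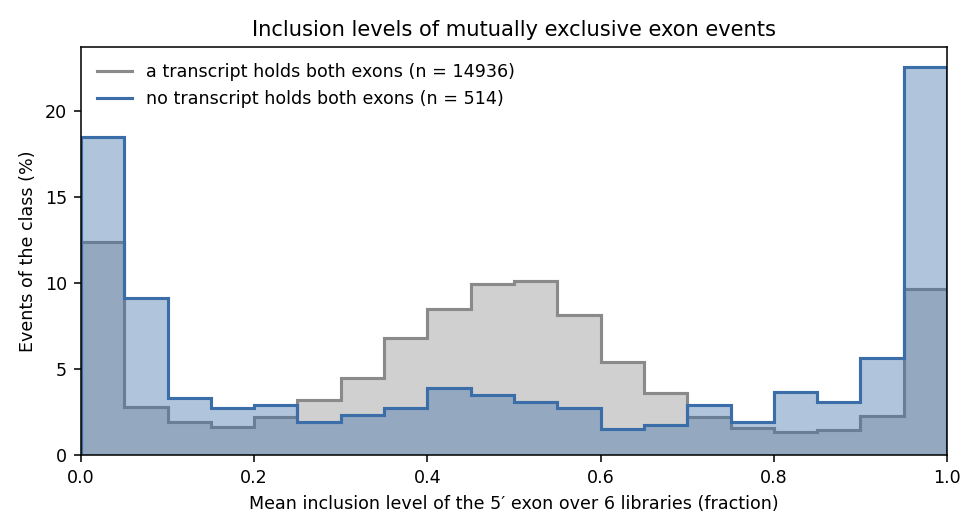
Share of events (%) by mean inclusion level of the 5′ exon over 6 libraries, in bins of 0.05, for the 14936 pairs that some transcript holds together (gray) and the 514 pairs that none does (blue). The blue class is highest at both ends of the scale and the gray class has a peak around 0.5.

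Exons of equal length, as in PKM, were rare among the members. The lengths were equal in 179 members (1.16%) of 133 genes, differed by a multiple of 3 in 5462 (35.3%) and differed otherwise in 9828 (63.5%). No transcript held both exons in 23 of the 179 equal pairs (12.8%) and in 491 of the 15290 unequal ones (3.21%). In those 23 equal pairs the exons had a median identity of 61.1%, and 19 (82.6%) reached 50%. In the 156 equal pairs that a transcript does hold together, the median identity was 32.2% and 52 (33.3%) reached 50%. These are descriptions of the annotation and sequence, and no test was made of them.

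The 23 pairs covered the whole range of levels in these cells. PKM used almost only the 3′ exon, with levels of 0.013, 0.015 and 0.015 in WT against 0.010, 0.016 and 0.010 in MT, from 2538.5 mean reads. The kinase gene MAPK9 and the zinc and manganese transporter gene SLC39A14 also stood near 0, with highest levels of 0.021 and 0.012 over all libraries. ACTN4 used mostly the 5′ exon, with 0.910, 0.904 and 0.923 in WT and 0.912, 0.903 and 0.872 in MT. RAB6A used both exons, with 0.536, 0.618 and 0.512 in WT and 0.585, 0.590 and 0.449 in MT, although no listed transcript holds them together. In each of PKM, ACTN4 and RAB6A the values of the genotypes overlapped. Over the 23 pairs, the genotypes did not overlap in 4 (17.4%), 2 higher and 2 lower in MT. Over all tested events of every type the share was 5.46%, with 2.32% higher and 3.15% lower.

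**Figure D2:**
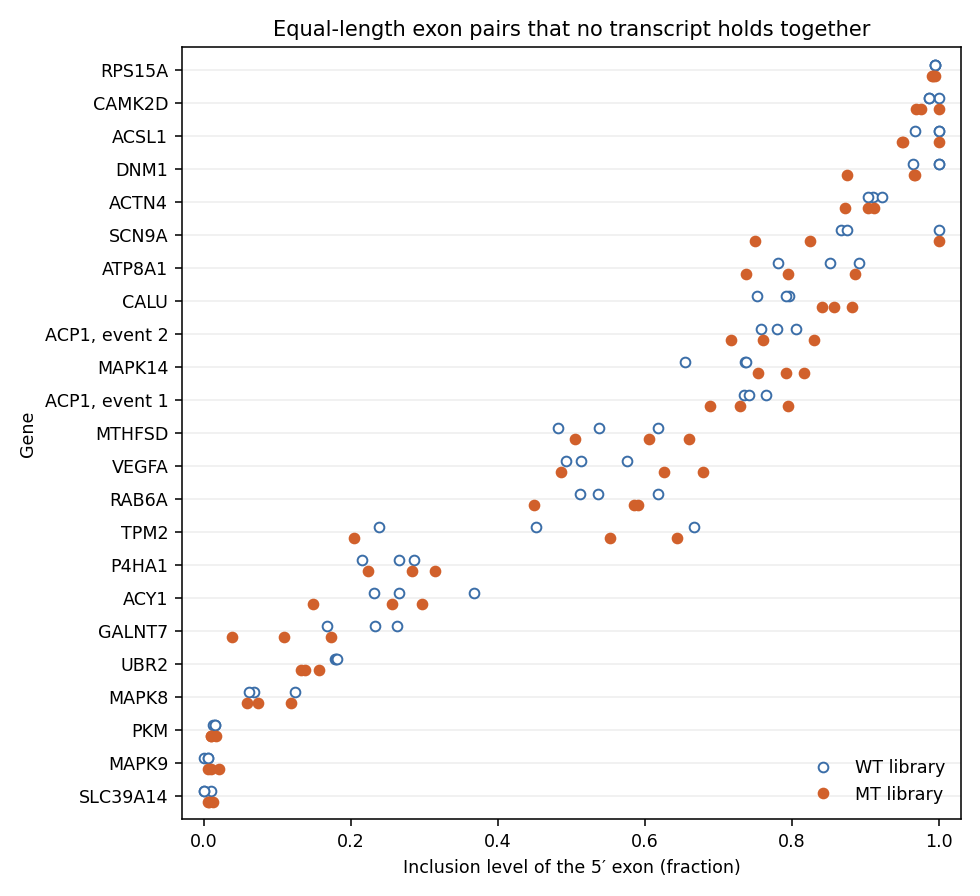
Inclusion level of the 5′ exon (fraction, horizontal axis) in each WT library (open blue) and MT library (filled orange) for the 23 equal-length pairs that no transcript holds together, ordered by mean level. The pairs run from near 0 in SLC39A14, MAPK9 and PKM to near 1 in CAMK2D and RPS15A. In CALU and MAPK14 the 3 MT points lie above the 3 WT points, and in UBR2 and RPS15A below them.

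Of a list of 41 genes known for mutually exclusive exons, 24 had a member, 58 members in all, and in 24 of those members no transcript held both exons. The 3′ exon dominated in SLC25A3, the mitochondrial phosphate carrier, at 0.00267 ± 0.00153 in WT and 0.00200 ± 0.00265 in MT (SD, n = 3 each, here and below). The 5′ exon of this pair, of 229 nt, is in 1 listed transcript, and the 3′ exon, of 122 nt, in 6. Whether it is the duplicated pair of the gene was not tested. The 5′ exon dominated in TPM3, a tropomyosin, at 0.997 ± 0.00231 and 0.996 ± 0, and in H2AFY, a variant histone, at 0.909 ± 0.0143 and 0.902 ± 0.0667. The transcription factor genes MEF2A, MEF2C and MEF2D also used mostly the 5′ exon, at 0.850 ± 0.0178, 0.963 ± 0.0511 and 1.00 ± 0 in WT. An intermediate level was found in P4HA1, a collagen prolyl hydroxylase subunit, at 0.256 ± 0.0366 and 0.274 ± 0.0467. FYN, a Src family kinase, had 0.896, 0.762 and 0.895 in WT and 0.823, 0.684 and 0.767 in MT, where 2 MT libraries lay within the range of the WT values. For ACTN1, MAPK9, FGFR2, FGFR3 and DNM2 the event with most reads was not the duplicated pair, so the list's members include pairs of ordinary neighbours. In MAPK14 that event had exons of 112 and 60 nt, and the equal pair of the gene, of 80 nt, was another member.

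The genotypes were compared in 15311 members. Another 154 had the same level in every library and 4 lacked a level in some library. limma was fitted to arcsine square root levels of all 83581 events of every type, with Benjamini-Hochberg adjustment over all of them. An event was called when the adjusted p was under 0.05 and the mean levels differed by more than 0.1. Of the members, 2 were called, 1 higher and 1 lower in MT (0.0131%), and the background over all events was 26 calls, or 0.0311% (0.0132% higher and 0.0179% lower). An unadjusted p under 0.05 was found for 429 members (2.80%), against a background of 4.47%. Alternative 3′ splice sites had 12 calls among 5351 events (0.224%).

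Members had a larger median difference between the means than any other event type, and a wider spread within a genotype. They did not have the largest share of differences above 0.1 or of groups without overlap. The means differed by more than 0.1 in 1110 members (7.25%; background 5.82%), and the 3 MT levels did not overlap the 3 WT levels in 995 (6.50%; background 5.46%), 476 higher and 519 lower in MT (backgrounds 2.32% and 3.15%). Single skipped exons, 55825 of the events tested, had 4.72% above 0.1 and 4.59% without overlap. Alternative 3′ sites had 8.73% and 9.29%, alternative 5′ sites 7.91% and 7.21%, and retained introns 10.4% and 7.09%. The median size of the difference was 0.0243 in members and 0.0137 over all events. The median SD among members was 0.0450 in WT and 0.0493 in MT, against 0.0171 and 0.0208 over all events. The signed median was -0.000333 in members and -0.002 over all events, so members were not shifted to either exon as a group. Differences were smaller in events with more reads. Among members with 10 to under 50 reads the median size was 0.0427 and 19.3% exceeded 0.1, whereas among the 515 tested members with 1000 reads or more the median was 0.00967 and 0 exceeded 0.1. Both calls had between 50 and 200 reads.

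**Figure D3:**
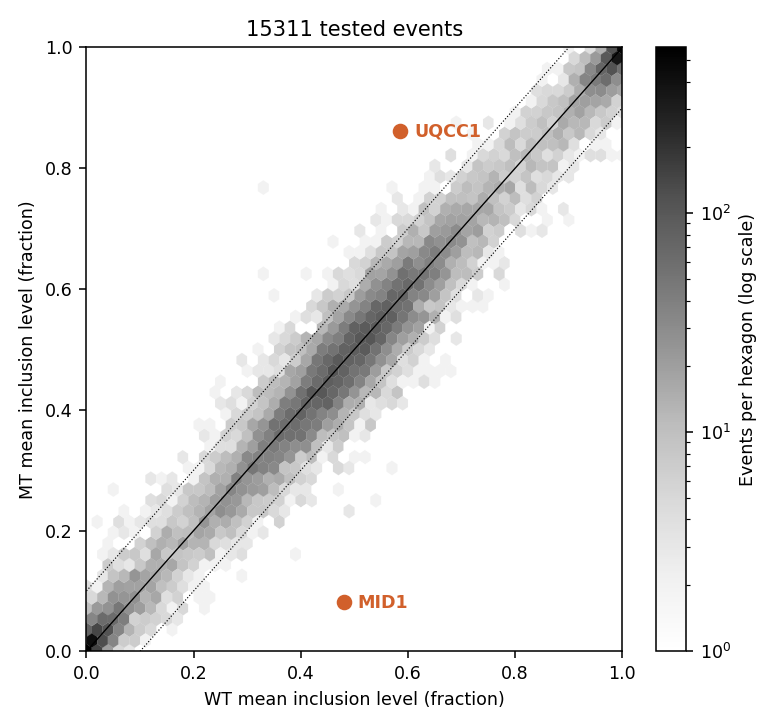
Mean inclusion level (fraction) in MT against WT for the 15311 tested members, with darker hexagons for more events (log scale). The solid line marks equal means, the dotted lines a difference of 0.1, and the orange points the called events, UQCC1 above the lines and MID1 below them.

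Equal and unequal pairs had nearly the same median difference between genotypes, 0.000333 and -0.000333. Of 177 tested equal pairs, 0 were called by limma and 7 had an unadjusted p under 0.05, and both calls were unequal pairs. The groups did not overlap in 19 equal pairs (10.7%), 4 higher and 15 lower in MT, and in 976 unequal ones (6.45%). The background over all events was 5.46%, with 2.32% higher and 3.15% lower in MT. The list of known genes had 0 called members, with a median difference of -0.00133 and 4 of 57 tested members without overlap (7.02%; background 5.46%).

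MID1, a ubiquitin ligase of microtubules, had the larger of the called differences. Its pair joins an exon of 716 nt at chrX:10566888-10567603, in part untranslated, and an exon of 96 nt at chrX:10523092-10523187, both on the minus strand, and 11 transcripts hold both. The levels were 0.447, 0.506 and 0.488 in WT against 0.000, 0.150 and 0.094 in MT. Every MT library thus lay far below every WT library, with a fall of the mean by 0.399 (limma, Benjamini-Hochberg adjusted p = 0.000606). The gene's other member, a pair of 96 and 108 nt that shares an exon with the first, had 0.486 ± 0.0876 in WT and 0.503 ± 0.121 in MT, with overlap.

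The reads of MID1 moved with this result. The called event had 285 mean reads in WT and 45 in MT, a ratio of 0.158, which was the lowest ratio of the 15311 tested members and the only one under 0.2. The median ratio over members was 1.02 (interquartile range 0.903 to 1.14). The other MID1 event had 331 and 75.3, the next lowest ratio at 0.228. The MT mean covers 6 listed values, and 3 of these have a level column. The part of the low read number in the difference in level was not tested, and fewer transcripts per cell cannot be told apart from fewer cells with the transcript in bulk libraries. Leaving out WT 1, WT 2 or WT 3 gave limma adjusted p values of 0.0647, 0.134 and 0.276, and leaving out MT 1, MT 2 or MT 3 gave 0.169, 0.0543 and 0.0932, so the call was lost each time while the difference stayed between -0.433 and -0.358.

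UQCC1, an assembly factor of mitochondrial complex III, had the other call. Its 5′ exon of 109 nt (chr20:35347164-35347272) and 3′ exon of 78 nt (chr20:35314688-35314765) lie on the minus strand, and 9 transcripts hold both. The levels were 0.589, 0.530 and 0.638 in WT against 0.951, 0.814 and 0.819 in MT, a rise of the mean by 0.276 with no overlap (limma adjusted p = 0.0414). The mean reads were 117 in WT and 154 in MT, a ratio of 1.32, where the median over members was 1.02. The ratio in other tested members of the gene ran from 0.613 to 2.02. The part of these read numbers in the difference in level was not tested. The call was lost without any 1 of the libraries: the limma adjusted p was 0.705, 0.742 and 0.668 without WT 1, WT 2 and WT 3 and 0.732, 0.822 and 0.397 without MT 1, MT 2 and MT 3, with differences between 0.231 and 0.302.

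UQCC1 held 15 members, which share exons and therefore reads. The same pair with an upstream flanking exon farther away had levels of 0.000, 0.033 and 0.025 in WT against 0.380, 0.071 and 0.181 in MT. The pair of the preceding exon of 58 nt with the exon of 109 nt had 0.529, 0.544 and 0.532 in WT and 0.933, 0.717 and 0.808 in MT, without a call (limma adjusted p = 0.337). With the farther flank, that pair had 0.047 ± 0.0218 and 0.192 ± 0.0756. These 4 events, which join the exons of 58, 109 and 78 nt, were higher in all MT than in all WT libraries. A higher level means more of the exon of 109 nt against that of 78 nt, but less of it against that of 58 nt. Of the other 11 members of UQCC1, 10 overlapped between the genotypes or had the same level throughout. The remaining member, of 105 and 96 nt, was lower in MT, at 0.256 ± 0.0182 in WT and 0.199 ± 0.0355 in MT.

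**Figure D4:**
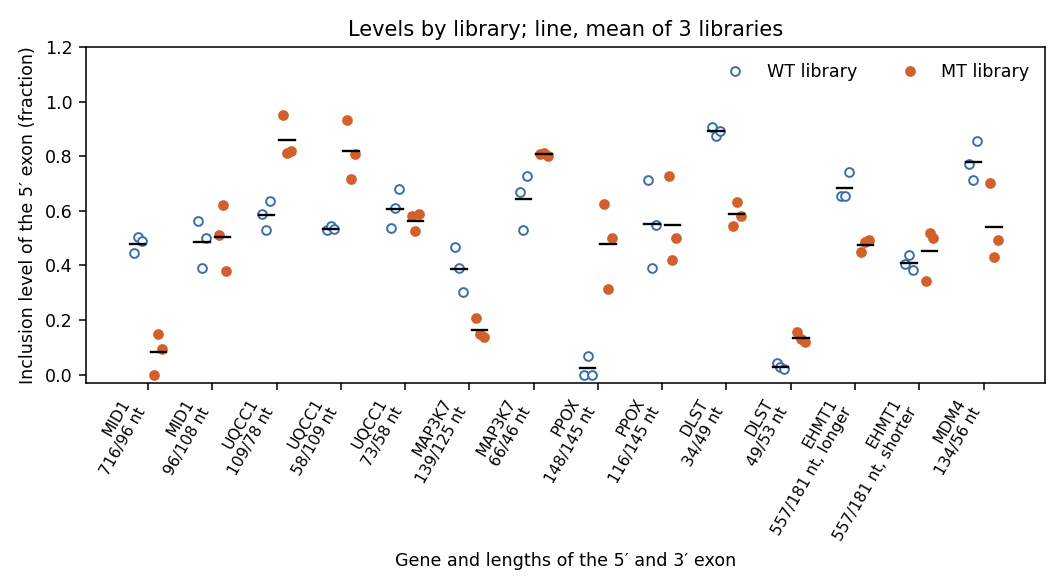
Inclusion level of the 5′ exon (fraction) in each WT (open blue) and MT library (filled orange) for events of 7 genes, with the lengths of the 5′ and 3′ exon under each gene and a black line at each mean. MID1 716/96 nt and UQCC1 109/78 nt are the called events. The EHMT1 events differ in the length of the downstream exon, and the PPOX events in the 3′ site of the 5′ exon.

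Below the calls, the unequal pairs with the smallest unadjusted p included genes of kinase signaling, p53 control, metabolism and the ribosome. In MAP3K7, a kinase of TGF-β and cytokine signaling, the pair of 139 and 125 nt had 0.466, 0.390 and 0.303 in WT and 0.206, 0.149 and 0.136 in MT, without overlap (limma adjusted p = 0.214), and its mean reads were 179 in WT and 78.3 in MT. The pair of the next exons upstream, of 66 and 46 nt, had 0.643 ± 0.101 and 0.808 ± 0.00666. The gene's remaining member, of 46 and 139 nt, shares an exon with each of these pairs and had 0.294 ± 0.107 and 0.263 ± 0.118, with overlap. In MDM4, an inhibitor of p53, the pair of 134 and 56 nt had 0.772, 0.712 and 0.856 in WT and 0.702, 0.430 and 0.494 in MT (limma adjusted p = 0.471). ARFGAP2, which activates hydrolysis of GTP by ARF1, had 1.000, 1.000 and 0.982 in WT and 0.934, 0.881 and 0.836 in MT (limma adjusted p = 0.415). None of the 3 passed the test, although in each the lowest WT library lay above the highest MT library.

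PPOX, the oxidase before the last step of heme synthesis, had events listed with different 3′ sites of the same exon. Its 5′ exon of 148 nt begins 32 nt upstream of a form of the same exon of 116 nt. With the 5′ exon of 148 nt, the level against the 3′ exon of 145 nt was 0.000, 0.067 and 0.000 in WT against 0.625, 0.313 and 0.500 in MT. With the form of 116 nt in place of the longer one, the level was 0.714, 0.391 and 0.550 in WT against 0.727, 0.421 and 0.500 in MT. The longer form was therefore at or near 0 in WT and present in every MT library, and the shorter form overlapped between genotypes. The event of the longer form rested on 12 mean reads and was not called (limma adjusted p = 0.341). Against another 3′ exon, of 133 nt, the longer form had 0.0210 ± 0.0364 in WT and 0.438 ± 0.0469 in MT, from 10.2 mean reads.

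A similar arrangement was present in EHMT1, a histone H3 lysine methyltransferase, through its downstream flanking exon. The pair of 557 and 181 nt was listed with a downstream exon that starts at chr9:137743371 and again with one that starts 21 nt later, at chr9:137743392. With the longer downstream exon and the nearer upstream flank, the level was 0.653, 0.653 and 0.741 in WT against 0.451, 0.486 and 0.493 in MT, and with the farther upstream flank it was 0.336 ± 0.0521 and 0.114 ± 0.0470. With the shorter downstream exon it was 0.405, 0.438 and 0.383 in WT against 0.343, 0.520 and 0.500 in MT. The first 2 did not overlap and the last did, and none was called (limma adjusted p = 0.595, 0.595 and 0.856). The alternative 3′ site event of those same start sites had a level of 0.262 ± 0.0616 for the longer exon in WT and 0.500 ± 0.0741 in MT (limma adjusted p = 0.341), and shares reads with the pairs. TGFBR1, a TGF-β receptor, had its pair listed with 5′ exons of 243 and 231 nt, 12 nt apart at the 3′ site. The longer form had 0.0480 ± 0.0231 in WT and 0.168 ± 0.0719 in MT without overlap, and the shorter 0.447 ± 0.0465 and 0.380 ± 0.0703 with overlap.

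A list of 14 genes was drawn from those the study names and does not hold all of them. PKM and SF3B2, for example, are named by the study and not in the list. Of the 14 genes, 8 had members, 32 in all. The study had picked these 8 genes for splicing changes with SF3B1 mutation, some of them from RNA-Seq that included HEK293T. Their shares below are therefore not independent of that choice. The count of called members was 0 by limma, with a median difference of -0.000833, 5 members with an unadjusted p under 0.05 and 5 without overlap (15.6%), where the backgrounds over all events were 4.47% and 5.46%. The same 5 members made up both counts. They lay in DLST, EHMT1 and TGFBR1, and those of DLST and of EHMT1 share exons. DLST, a subunit of the 2-oxoglutarate dehydrogenase complex, held 2 of these 5. Its pair of 34 and 49 nt had 0.908, 0.876 and 0.894 in WT and 0.544, 0.634 and 0.583 in MT, from 31.1 mean reads (limma adjusted p = 0.501), and its pair of 49 and 53 nt had 0.041, 0.027 and 0.019 in WT and 0.157, 0.130 and 0.119 in MT (limma adjusted p = 0.471). The other 3 DLST members overlapped. Elsewhere in the gene, a pair of 3′ sites 19 nt apart was called, at 0.0583 ± 0.0110 in WT and 0.371 ± 0.0812 in MT (limma adjusted p = 5.94e-05), and none of the members uses either site.

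SERBP1, an mRNA-binding protein, had a called alternative 3′ site event in an exon that members also use. The alternative 3′ sites of its exon of 72 nt, 18 nt apart, had a level of 0.461, 0.500 and 0.509 for the upstream site in WT and 0.801, 0.757 and 0.805 in MT, a called rise of 0.298 (limma adjusted p = 6.75e-10). Both members that use the downstream site, as 3′ exon of 72 nt beside an exon of 141 nt, were at 0.564 ± 0.0155 and 0.570 ± 0.00819 and at 0.855 ± 0.0284 and 0.857 ± 0.0471, with overlap in each. They had 5514 and 3787 mean reads. All 3 listed transcripts with this exon of 72 nt also hold the exon of 141 nt. The junction between these exons, where the alternative sites differ, counts toward neither form. The levels of these members therefore cannot show the choice of site in such transcripts. Over all 12 called alternative 3′ site events, in 9 genes, 2 tested members used a site of one, and these were the SERBP1 pairs. Called events of types other than mutually exclusive exons, with alternative 3′ sites among them, lay in 17 genes. A tested member was found in 7 of the genes, 50 members in all. Of these, 0 were called by limma and 2 had an unadjusted p under 0.05, where the backgrounds over all events were 0.0311% and 4.47%. The members of SKIV2L, STAU1, TMEM14C and TRIM37, 15 in all, had differences between -0.091 and 0.064.

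Ribosomal protein genes had the most reads and small differences. The event with the most, in RPS2 with 30024 mean reads, had 0.424, 0.424 and 0.441 in WT and 0.428, 0.426 and 0.440 in MT. RPS18, RPS4X and RPL10, and the splicing repressor gene HNRNPA1, followed with 17336 to 20003 reads and differences between -0.0133 and 0.00167. Another RPS2 pair, of 90 and 413 nt with 27572.5 reads, had 0.372, 0.377 and 0.355 in WT and 0.388, 0.410 and 0.428 in MT. RPSA had 0.634, 0.622 and 0.669 in WT and 0.585, 0.575 and 0.621 in MT. The last 2 pairs were among the 10 unequal ones with the smallest p, with differences of 0.0407 and -0.0480, and neither passed the test (limma adjusted p = 0.337 and 0.452).

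Among equal pairs, CALU had the smallest p. Its level was 0.796, 0.792 and 0.752 in WT against 0.857, 0.841 and 0.881 in MT, higher in every MT library by a mean of 0.0797, from 682 mean reads (limma adjusted p = 0.512). ATE1, an arginyltransferase, had 0.635, 0.518 and 0.579 in WT and 0.453, 0.375 and 0.466 in MT. EPB41L1, a membrane skeleton protein, had 0.231, 0.196 and 0.250 in WT and 0.023, 0.080 and 0.098 in MT. Both were lower in every MT library. KDSR, of sphingolipid synthesis, was at 1.000 throughout WT and at 0.938, 0.982 and 0.990 in MT. GALNT7, a glycosyltransferase, and MAP2K4, a stress kinase, had means of 0.221 and 0.213 in WT against 0.107 and 0.0843 in MT, with overlap. The limma adjusted p was 0.856 for each of the last 5 genes.

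Other gene lists had 0 called members by limma. The 26 genes of the U2 snRNP and of branch site recognition gave 48 members in 14 genes, with a median difference of 0.00217, a range from -0.074 to 0.060 and 2 members with an unadjusted p under 0.05. SF3B1 itself had a pair of 171 and 238 nt at 0.470, 0.479 and 0.481 in WT and 0.500, 0.469 and 0.435 in MT, which overlapped. SR and hnRNP proteins, regulators of exon choice, gave 75 members with a median of 0 and 4 such p values. Zinc finger genes of the ZNF series gave 211 members in 101 genes with a median of 0.00133 and 4 such p values. Noncoding RNA genes gave 80 members in 8 genes, 5 such p values and a median of 0.000333. The groups did not overlap in 2.17%, 4.11%, 5.74% and 3.85% of the tested members of these 4 lists, in the order given, where the backgrounds were 5.46% without overlap and 4.47% with an unadjusted p under 0.05.

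The genes with most members were GAS5, a noncoding host gene of small nucleolar RNAs, with 53, PPP6R3, a phosphatase subunit, with 40, and MPHOSPH9 with 31. Their members used 38, 26 and 20 exon pairs. The differences between genotypes ranged from -0.0367 to 0.043 in GAS5, from -0.0803 to 0.0397 in PPP6R3 and from -0.164 to 0.117 in MPHOSPH9, with 0 calls by limma.

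Libraries also differed in a way that crossed the genotypes. It was visible in pairs whose exons differ in GC content by more than 10 percentage points, among members with at least 50 reads that a transcript holds together. Where the 5′ exon was richer in GC (1113 pairs), the median level was 0.465, 0.491 and 0.455 in WT 1 to WT 3 and 0.450, 0.504 and 0.485 in MT 1 to MT 3. Where the 3′ exon was richer (1095 pairs), it was 0.495, 0.435 and 0.469 in WT against 0.505, 0.423 and 0.443 in MT. The order of the classes was therefore opposite in WT 1 and MT 1 to that in WT 2 and MT 2. In pairs within 10 points (9210), the medians lay between 0.473 and 0.487. The part of this difference in single events was not tested. Without WT 1 and MT 1, the difference was -0.375 in MID1 and 0.233 in UQCC1 (limma adjusted p = 0.769 in each), and 0 members were called by limma.

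**Figure D5:**
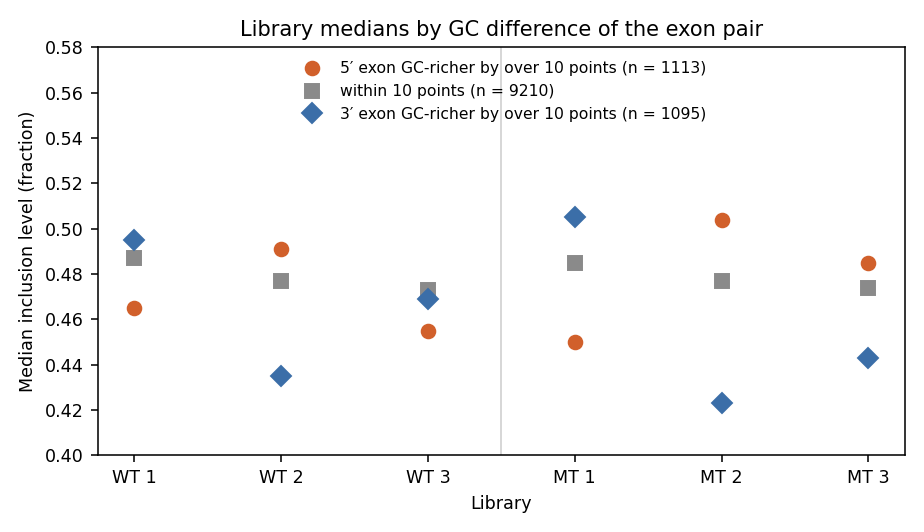
Median inclusion level of the 5′ exon (fraction; the axis starts at 0.40) in each library for pairs whose 5′ exon is richer in GC by over 10 points (orange), whose 3′ exon is (blue), and for those within 10 points (gray). Blue lies above orange in WT 1, WT 3 and MT 1 and below it in WT 2, MT 2 and MT 3.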

How the data were processed

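RNA-Seq splice events of 3 WT and 3 MT HEK293T libraries were used, and the peak lists of 8 Nalm-6 libraries were not used here. Methods name rMATS for the event table. The deposited inclusion levels are fractions with 3 decimals, computed by the authors as length-scaled junction reads of 1 form over both forms. The deposited mean reads per event are an unscaled read signal of each genotype, and depth per library is therefore unknown. The MT means cover 6 listed entries per event against 3 MT samples in the labels, and the 3 entries with level columns were taken as the MT libraries, although that match is not settled. The table's own p-values and differences were not used.

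The form lengths of all 15469 members matched inclusion of the 5′ exon. Start positions were made 1-based, and exons were matched by coordinates to GENCODE 44 on GRCh38. The splice dinucleotides AG and GT stood at over 99% of the sites. Junction counts per library could not be tied to the 3 MT samples and were not tested.

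Events of all types with a level in 6 libraries, at least 10 mean reads and unequal levels entered limma 3.58.1 (R 4.3.3) after an arcsine square root transform. The prior variance followed the log2 of mean reads, and p-values were adjusted by Benjamini-Hochberg. The test was tried on simulated data first. Alternatives were a logit with a constant of 0.01, other read minima and differences, no trend, robust moderation, a replicate block and the omission of libraries. No per-library error comes with a level, so intervals of single libraries were not given.

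Members and gene lists were chosen with earlier results of these data known. Genes were named by rule: called members, the 6 equal and 10 unequal pairs with the smallest p (1 per gene), the known genes' and U2 genes' events with most reads, the 5 genes with most reads, the 3 with most members, and the listed genes of the study. The other events of MID1, UQCC1, MAP3K7 and PPOX and the alternative 3′ site events were added after their values were seen. The SR and hnRNP, ZNF and noncoding lists are described by counts. A gene named by the rule and some splice site sequences are not reported here.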

Additional observations from a re-analysis of the deposited data

How the results depend on the processing

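Called counts are given for members and, after a slash, for all events, with 2/26 reported above. They were 0/3 with the logit, 1/17 with at least 50 reads, 1/19 with no read minimum, 0/0 with 1 prior variance and no trend, and 3/63 with robust moderation, which held 25 of the 26. At least 20 reads and a minimum of 10 in each genotype gave 2/26 and 2/25, and a difference above 0.05 or no minimum difference gave 2/29 and 2/31. Leaving out 1 library gave 0 to 1 member and 3 to 13 events, and the member called then, without MT 3, was in PDHA1 (limma adjusted p = 0.00563, difference 0.209), neither MID1 nor UQCC1. Leaving out WT 1 and MT 1 together, chosen after the data were seen, gave 0/0. The MID1 call was also lost with the logit, without the trend and with robust moderation (limma adjusted p = 0.448, 0.412 and 0.0858). The UQCC1 call was also lost with those first 2 and with at least 50 reads or no minimum (limma adjusted p = 0.537, 0.521, 0.0586 and 0.0509). Neither difference changed sign. With robust moderation, MAP3K7 (139 and 125 nt) and UQCC1 (58 and 109 nt) were called (limma adjusted p = 0.0285 and 0.0441). The cause of these changes was not tested.

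WT and MT share replicate numbers in the labels, but the MT columns carry none. A replicate block by column order gave 1/12, with UQCC1 no longer called (limma adjusted p = 0.282). Deviations from the group means over 11620 members correlated at 0.429 for WT 1 with MT 1, 0.448 for WT 2 with MT 2 and 0.0084 for WT 3 with MT 3, and at -0.308 for WT 1 with MT 2 and -0.528 for WT 2 with MT 1. Whether the label numbers pair the samples is not settled by these columns. The shares of the length classes moved little with the read minimum, and the equal share was 1.06% to 1.30%. The median difference of equal pairs, 0.000333, was -0.000167 with at least 50 reads. With 1 event per gene, 60 equal and 5150 unequal pairs remained. Of 1912 settings of 130 named events, 22 lost a call, all of them for the called MID1 and UQCC1 events, and 2 gained one. All the other named events were uncalled in the main fit, so their staying uncalled says little about how stable a call is. Direction was not kept in every setting. The RBM5 pair of 161 and 98 nt, for example, had a difference of 0.0267 in the main fit and -0.0515 without WT 1 and MT 1. Among members with 10 to under 50 reads, 19.3% of differences exceeded 0.1, 138 of 3691 had an unadjusted p under 0.05 and 0 were called by limma.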
